A study of Mus musculus with 6 samples.

Results

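Nova1 and Nova2 are the genes of both NOVA proteins, and the data described here are the positions at which NOVA1 and NOVA2 themselves were crosslinked to the transcripts of these genes in mouse cortex. The assay was HITS-CLIP, which fixes proteins to RNA with ultraviolet light, precipitates 1 protein and sequences the short RNA fragments it carries. It was done for each protein on wild-type CD1 cortex at embryonic day 18.5, with 3 biological replicates per protein. All libraries shared this genotype, age and tissue, and only the precipitated protein differed. The deposited lists give clusters of overlapping tags, where a tag is a sequenced RNA fragment after removal of PCR duplicates, with 1 tag count per cluster pooled over the 3 libraries of a protein. A cluster was taken when at least 1 nt of it fell in the GENCODE vM1 span of Nova1 or Nova2 in sense orientation, or when it lay within 10 kb past the end of the gene. This gave 67 of the 46579 clusters in both lists, 31 from the NOVA1 list and 36 from the NOVA2 list. Of these, 39 belonged to Nova1 and 28 to Nova2.

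The NOVA1 list held 9988 clusters with 304703 tags and the NOVA2 list 36591 clusters with 1309270 tags, each cluster with at least 10 tags. Because the counts were pooled, no value per library could be computed, the differences below carry no replicate error, and no test was made. The study calls its limit of 10 tags a peak height, so that the count may be the highest depth of a cluster rather than all of its tags. The sums and ratios below are then of depths. The intervals given are 95% intervals that treat the counts as tags and cover counting error only. The lists hold bound RNA from the whole cortex and no transcript levels, so that less of a transcript, fewer cells with it and less binding cannot be told apart in a tag count. No tissue marker could be checked for the same reason.

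NOVA proteins are neuronal RNA-binding proteins whose KH domains recognise YCAY, where Y is C or U, most readily when several copies lie close together. They regulate alternative splicing from positions in and beside exons, and they also bind 3' untranslated regions (3' UTRs). NOVA1 is known to act on the splicing of its own pre-mRNA, on an internal exon called exon 4. The binding of a protein to the transcript of its own gene is called auto-binding here, and to the transcript of the other gene cross-binding.

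The sequences below are those of the clusters with the most tags, up to 3 for each gene and list. In each cluster the window of 30 nt with the most YCAY was taken, with YCAY in capitals. The tags named are those of the list by which a window was picked. All of these windows except that in intron 4 also overlap a cluster of the other list. Positions are counted from 1 in NCBIM37 (mm9). Nova1 lies on the minus strand and Nova2 on the plus strand, and each sequence is written 5' to 3' along the transcript.
Nova2 3' UTR, NOVA2 302 and NOVA1 73 tags, chr7:19545328-19545357: caugccugugucuacgugguuUCAUuUCAU
Nova2 3' UTR, NOVA2 132 tags, chr7:19549952-19549981: cccCCACcccuucucccucggcgacuUCAC
Nova2 3' UTR, NOVA2 87 tags, chr7:19549824-19549853: gggCCAUgcCCACaucucCCACCCACUCAC
Nova2 3' UTR, NOVA1 24 tags, chr7:19548654-19548683: cuaagugacuCCAUCACCACcggCCACCAC
Nova2 3' UTR, NOVA1 23 tags, chr7:19549916-19549945: ccCCACcuacCCACuccccgcucCCACCAC
Nova1 3' UTR, NOVA1 69 tags, chr12:47800294-47800323: gcaugcuggccagggcCCAUucuUCAUCAU
Nova1 3' UTR, NOVA1 61 tags, chr12:47799286-47799315: UCAUugaacuauauggacucuUCAUuUCAU
Nova1 3' UTR, NOVA1 51 tags, chr12:47798891-47798920: uuaUCAUuauaaaugugcuuaguUCAUCAU
Nova1 intron 2, NOVA2 91 tags, chr12:47902210-47902239: gaUCAUgaaccuaucUCAUggaauuuUCAC
Nova1 intron 2, NOVA2 78 tags, chr12:47863081-47863110: UCAUccccuuccuccCCACaacUCACUCAC
Nova1 intron 4, NOVA2 74 tags, chr12:47810693-47810722: accuCCACCACUCACccgauaugcagugau
The number of YCAY per window ran from 2 to 5. The cluster with the most tags of all, in the 3' UTR of Nova2, had only 2 in its window, and both lay at the 3' end of that window.

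Both transcripts were bound by both proteins. NOVA1 had 19 clusters with 505 tags (462 to 551) on its own transcript and 12 clusters with 267 tags (236 to 301) on Nova2. NOVA2 had 16 clusters with 889 tags (832 to 949) on its own transcript and 20 clusters with 649 tags (600 to 701) on Nova1. In each list, the transcript of the precipitated protein thus held more tags than that of the other gene, with intervals that did not overlap. As a share of its list, this was 16.6 NOVA1 tags per 10000 on Nova1 against 8.76 on Nova2, and 6.79 NOVA2 tags per 10000 on Nova2 against 4.96 on Nova1.

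Both genes stood high in the lists. By NOVA1 clusters, Nova1 ranked 47th and Nova2 99th of 3033 genes with a cluster, where the median gene had 2. By NOVA2 clusters they ranked 295th and 384th of 5381 genes, where the median was again 2. By NOVA2 tags the order of the 2 genes turned, with Nova2 at 261 and Nova1 at 378, while the median gene had 56 tags.

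**Figure D1:**
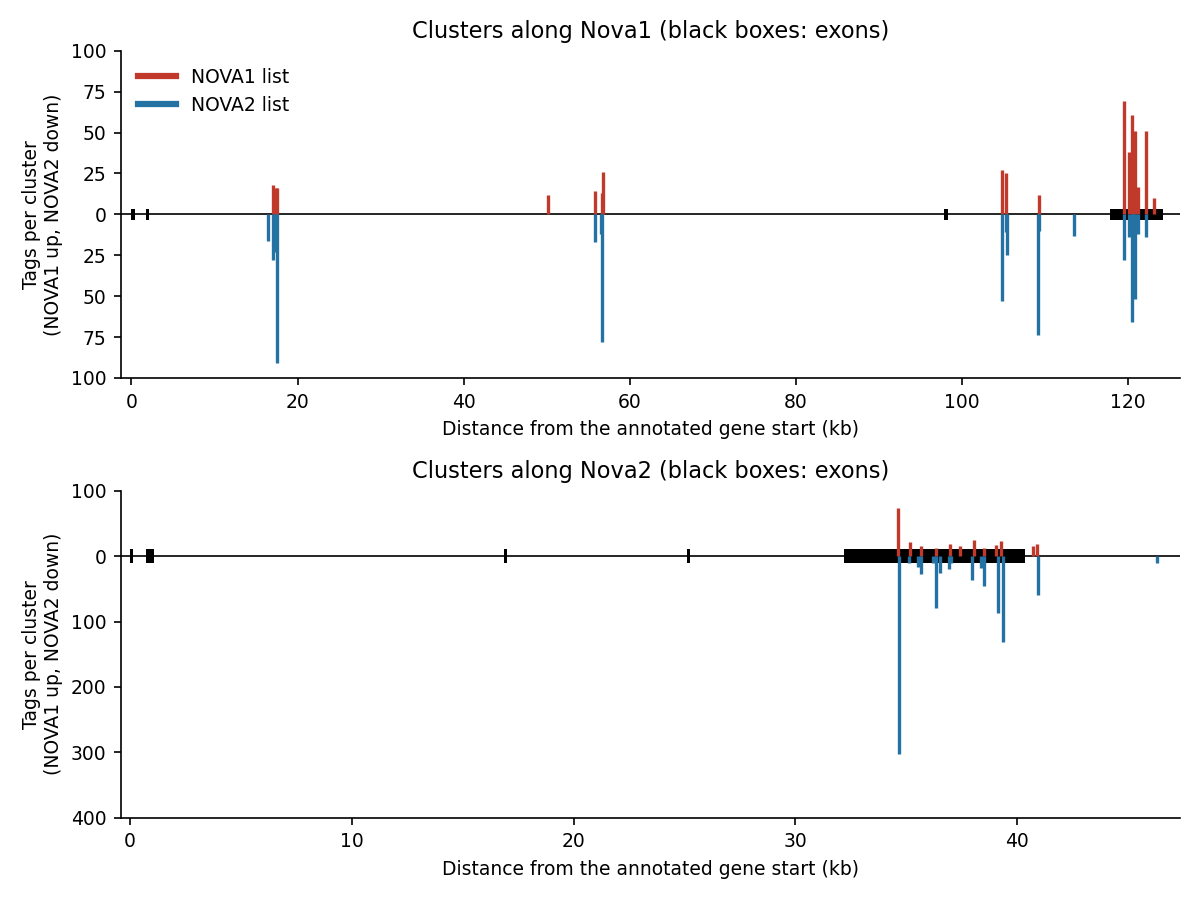
Clusters along the annotated span of Nova1 (upper panel) and Nova2 with its 3' flank (lower panel), drawn in the direction of transcription. Each line is 1 cluster, its height the tag count, NOVA1 above and NOVA2 below the axis; black boxes are exons, and exon 4 of Nova1 lies under the lines near 105 kb. Nova1 was bound in introns and in its 3' UTR, and Nova2 only in its 3' UTR and past its annotated end.

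The positions of the clusters differed between the genes. Nova1 (ENSMUSG00000021047.6, chr12:47795504-47919762) has 5 exons and 117259 nt of intron in this annotation, and 11 of its 19 NOVA1 clusters (57.9%) and 13 of its 20 NOVA2 clusters (65.0%) lay in introns. Among clusters of 20 or more tags these were 3 of 8 (37.5%) and 7 of 10 (70.0%). Nova2 (ENSMUSG00000030411.8, chr7:19510698-19551031) also has 5 exons and has 31320 nt of intron, and none of its clusters of either list lay there. Its clusters lay in the 3' UTR (10 of NOVA1 and 14 of NOVA2) or past the annotated end of the gene (2 of each). On neither gene did a cluster of either list lie in coding sequence. None was classed as 5' UTR, but the annotation gives only 24 nt of 5' UTR for Nova1 and 0 nt for Nova2. Binding to 5' UTRs could thus not be judged. Positions with fewer than 10 tags are not in the lists.

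A transcript with many clusters and none in introns was uncommon, above all for NOVA2. Among genes with at least 10 clusters, 26 of 176 (14.8%) had no intronic tag in the NOVA1 list and 10 of 730 (1.37%) had none in the NOVA2 list. In the median gene of this kind introns held 42.7% of NOVA1 tags and 92.7% of NOVA2 tags. On Nova1 introns held 37.4% of NOVA1 tags and 69.5% of NOVA2 tags, both below that median.

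Auto-binding of NOVA2 was concentrated in the last exon of its own transcript. The 3' UTR of Nova2, 7064 nt long, held 819 of the 889 NOVA2 tags. The cluster with the most tags, chr7:19545292-19545426, began 1325 nt after the stop codon and had 302 tags. The next in order were a pair of adjoining clusters far into the 3' UTR, chr7:19549944-19550175 with 132 tags and chr7:19549692-19549943 with 87 tags, and chr7:19546953-19547120 with 79 tags. The remaining 10 NOVA2 clusters of the 3' UTR had between 10 and 45 tags.

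Cross-binding of NOVA1 to this 3' UTR was found at the same positions, with fewer tags in unscaled counts. Of its 10 clusters, 9 lay over a NOVA2 cluster. Its highest cluster, chr7:19545210-19545410, lay over the highest NOVA2 cluster and had 73 tags. Its other 9 clusters in the 3' UTR had between 12 and 24 tags, among them chr7:19548630-19548879 with 24, chr7:19549890-19550064 with 23 and chr7:19545691-19546002 with 22. The last of these was the only shared position of the Nova2 3' UTR with more NOVA1 than NOVA2 tags (22 against 10). One NOVA1 cluster of 16 tags, chr7:19548015-19548207, had no NOVA2 cluster over it.

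Binding continued past the annotated end of Nova2. A NOVA2 cluster of 60 tags, chr7:19551575-19551684, began 543 nt past the end, and a NOVA1 cluster of 19 tags, chr7:19551543-19551684, had the same downstream boundary. A further NOVA1 cluster of 15 tags lay 330 nt past the end and a NOVA2 cluster of 10 tags 5956 nt past it. Whether the transcript extends to these positions was not tested.

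**Figure D2:**
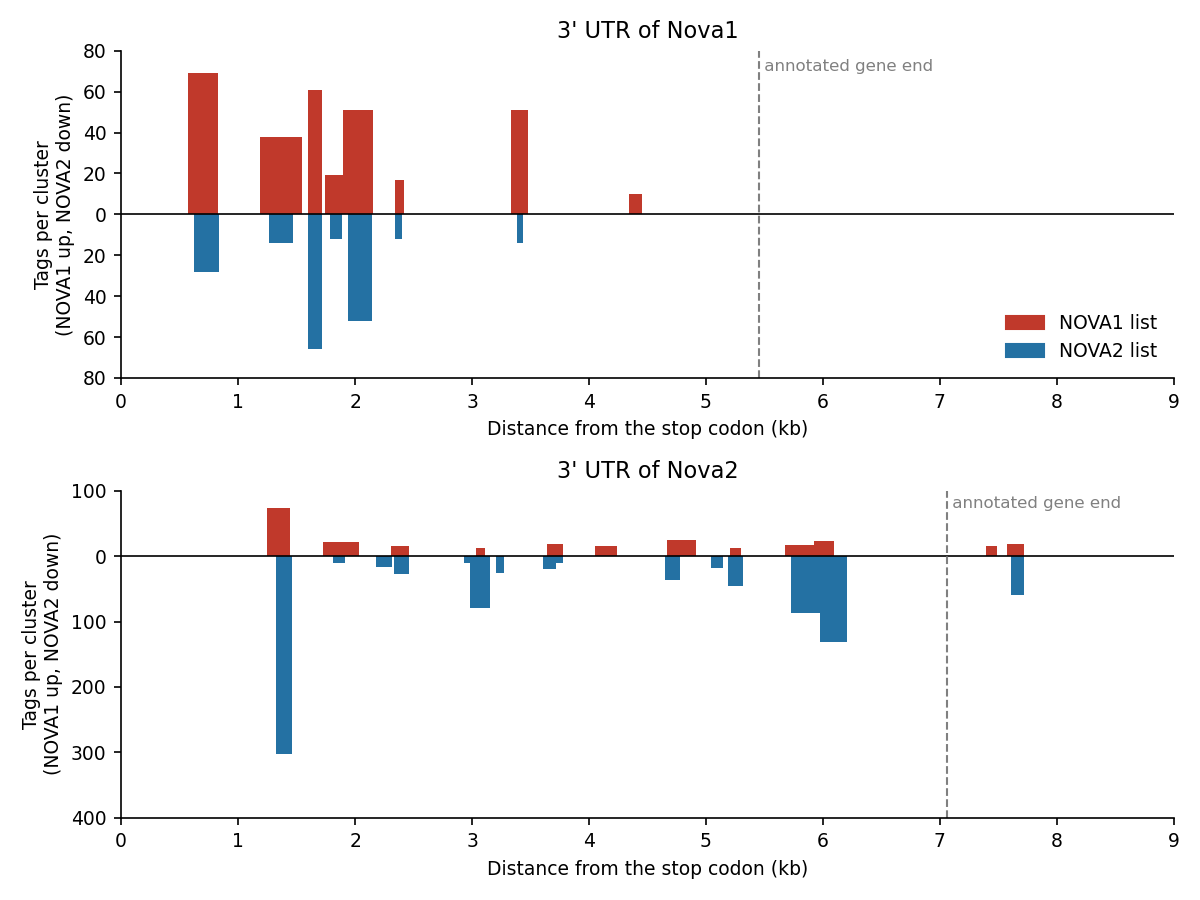
Clusters by distance from the stop codon in Nova1 (upper panel) and Nova2 (lower panel). Each bar is 1 cluster, its width the cluster length and its height the tag count, NOVA1 above and NOVA2 below the axis; the dashed line is the annotated gene end, and the cluster 5956 nt past the end of Nova2 lies outside the plotted range. In Nova1 the bars of both proteins are of like height or higher for NOVA1. In Nova2 those of NOVA2 are higher at all shared positions but 1. Tag counts are unscaled, and the NOVA2 list is the deeper one.

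In the 3' UTR of Nova1, 5452 nt long, auto-binding exceeded cross-binding. NOVA1 had 8 clusters with 316 tags (282 to 353) there, which was 62.6% of its tags on the gene. NOVA2 had 7 clusters with 198 tags (171 to 228), which was 30.5%. This was the reverse of the order over the whole gene, where NOVA2 had more tags than NOVA1.

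All 7 NOVA2 clusters of the Nova1 3' UTR lay over a NOVA1 cluster. At chr12:47799239-47799357 the boundaries of both were identical, with 61 NOVA1 and 66 NOVA2 tags. The neighbouring cluster chr12:47798804-47799058 had 51 NOVA1 tags over a NOVA2 cluster of 52. These were the 2 positions at which NOVA2 reached the NOVA1 count.
At the other 5 the NOVA1 count was higher, with the widest gap at chr12:47797478-47797622 (51 against 14). The first cluster after the stop codon, chr12:47800130-47800384, had 69 NOVA1 and 28 NOVA2 tags, and chr12:47799410-47799770 had 38 and 14. The remaining shared clusters had 19 and 12 tags and 17 and 12 tags. The cluster nearest to the gene end had 10 NOVA1 tags and no NOVA2 cluster. NOVA1 clusters covered 27.0% of the Nova1 3' UTR and NOVA2 clusters 17.3%, against 26.0% and 25.6% in Nova2.

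In the introns of Nova1 the unscaled counts had the opposite order, with more NOVA2 tags at each shared position. The NOVA2 list is the deeper one. After division by the tag total of each list, the log2 ratio over these introns was 0.85 (0.60 to 1.10), on the NOVA1 side. The size of this lean, and whether any is left, depends on the divisor. With the unique tag totals that the study states, the ratio over the whole gene fell from 1.74 to 0.99. That divisor lowers all scaled ratios by the same amount. The intron ratio was not computed with it, so that a lean of the introns to NOVA1 is not settled. Intron 2, 96.029 kb long, held 8 NOVA1 clusters with 125 tags and 7 NOVA2 clusters with 265. Intron 3 held 1 cluster of each, with 27 and 53 tags. Intron 4 held 2 NOVA1 clusters with 37 tags and 5 NOVA2 clusters with 133. Intron 1 had none.
The intron 2 clusters were grouped in a few places far from any exon. A pair of NOVA1 clusters of 16 tags each lay over a NOVA2 cluster of 91 tags, chr12:47902142-47902370, which was 15502 nt downstream of exon 2. Beside it, a NOVA1 cluster of 10 tags lay over a NOVA2 cluster of 23 tags, chr12:47902371-47902447, and reached 2 nt into the larger one. A second NOVA2 cluster of 78 tags, chr12:47862945-47863184, lay over NOVA1 clusters of 26 and 13 tags, 41101 nt upstream of exon 3. In intron 4, the NOVA2 cluster chr12:47810443-47810722 had 74 tags where NOVA1 had 12, and was 3762 nt downstream of exon 4.

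Intronic clusters close to an exon edge were found at 1 exon only. Exon 4 of Nova1 (chr12:47814485-47814556, 72 nt) had bound positions on both sides within 500 nt, and no intronic cluster lay that near to another exon of either gene. Upstream, a NOVA1 cluster of 27 tags (chr12:47814916-47815016) ended 359 nt before the exon, over a NOVA2 cluster of 53 tags (chr12:47814939-47815006) that ended 382 nt before it. Downstream, a NOVA1 cluster of 25 tags (chr12:47814341-47814470) and a NOVA2 cluster of 11 tags (chr12:47814420-47814470) began at the same nucleotide, 14 nt after the exon. A second NOVA2 cluster of 25 tags (chr12:47814270-47814408) began 76 nt after it.

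The windows beside exon 4 are shown because they lie beside the exon known to be under NOVA control. They were chosen after the values had been seen.
Upstream of exon 4, in clusters of both proteins, chr12:47814969-47814998: uuuaugccaaaguaaacuUCAUuUCACCAC
Downstream of exon 4, in clusters of both proteins, chr12:47814441-47814470: ucUCAUcuacaCCAUacuuUCACagcgguu
Downstream of exon 4, in the second NOVA2 cluster, chr12:47814374-47814403: uuuauucguUCAUucUCAUauaugcaCCAU
Each holds 3 YCAY. Exon 4 itself holds 5 YCAY, or 72.5 per 1000 positions, the highest density of the 10 exons of both genes, and no cluster of either list touched it. The only annotated Nova1 transcript includes exon 4, so that its use in these samples cannot be read from the annotation, and inclusion was not measured here.

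**Figure D3:**
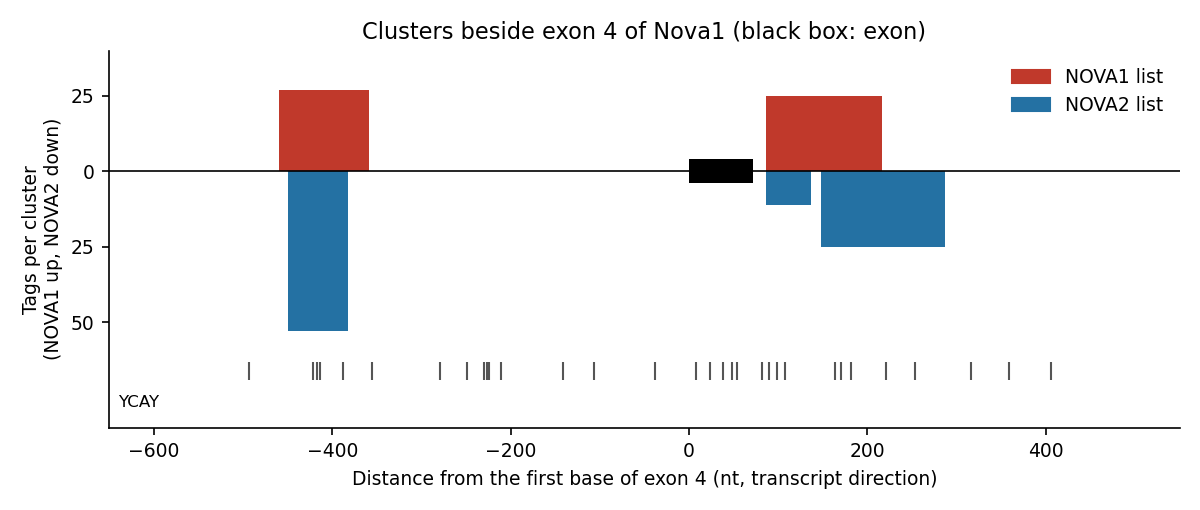
Clusters beside exon 4 of Nova1 by distance from the first base of the exon, in the direction of transcription. Bars are clusters with their tag counts, NOVA1 above and NOVA2 below the axis, the black box is the exon and the grey ticks are YCAY. The clusters of both proteins lie over each other on both sides, and none touches the exon.

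The overlap of both lists was read against the whole lists. A NOVA2 cluster on the same strand lay over 27 of the 31 NOVA1 clusters (87.1%, 70.2 to 96.4), against 80.1% of all NOVA1 clusters, so the share on these genes was near the background. A NOVA1 cluster lay over 28 of the 36 NOVA2 clusters (77.8%, 60.8 to 89.9), against 22.1% of all NOVA2 clusters. By class, the share over the whole NOVA2 list was 64.5% in 3' UTRs and 14.1% in introns. Within the introns of Nova1 the share was 9 of 13 (69.2%, 38.6 to 90.9), and in the 3' UTRs of both genes together 18 of 21 (85.7%, 63.7 to 97.0).

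Joined where they overlapped, the clusters formed 8 bound positions in the 3' UTR of Nova1, 12 in its introns, 12 in the 3' UTR of Nova2 and 3 past its end. Both proteins shared 7 of 8, 7 of 12, 8 of 12 and 1 of 3 of these.
NOVA1 alone was found at 1 position of each group. NOVA2 alone was found at 4 intronic positions of Nova1, at 3 positions of the Nova2 3' UTR and at 1 past its end. Some of these lay within 50 nt of a shared position and need not be separate places of binding. Thus chr7:19546899-19546952 adjoined the shared position chr7:19546953-19547120, and chr12:47810353-47810440 lay beside chr12:47810443-47810722.
The positions with 1 protein had low counts, 10 to 16 tags for NOVA1 and 10 to 26 for NOVA2, so that most lie close to the threshold of 10 tags.

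The log2 ratio of NOVA1 to NOVA2 tags at the shared positions had a different median in each group. The range of the Nova2 3' UTR overlapped the ranges of both groups of Nova1. In the 3' UTR of Nova1 the median was 0.66 (range -0.11 to 1.87), with more NOVA1 tags at 5 of 7. In the introns of Nova1 it was -0.97 (-2.62 to -0.28), with more NOVA2 tags at 7 of 7. In the 3' UTR of Nova2 it was -1.71 (-2.60 to 1.14), with more NOVA2 tags at 7 of 8.
These ratios are of unscaled counts, and the NOVA2 list is the deeper one, so that they are read against all clusters that overlap one to one between the lists. Across 2146 such pairs in 3' UTRs the median was -0.40 with quartiles of -1.0 and 0.22. All 7 pairs of the Nova1 3' UTR lay above that median and 5 lay above the upper quartile. Of 5 one-to-one pairs in the Nova2 3' UTR, 1 lay above the median. Across 3452 intronic pairs the median was -2.04, and 3 of the 4 one-to-one pairs in Nova1 introns lay above the upper quartile of -1.36.

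**Figure D4:**
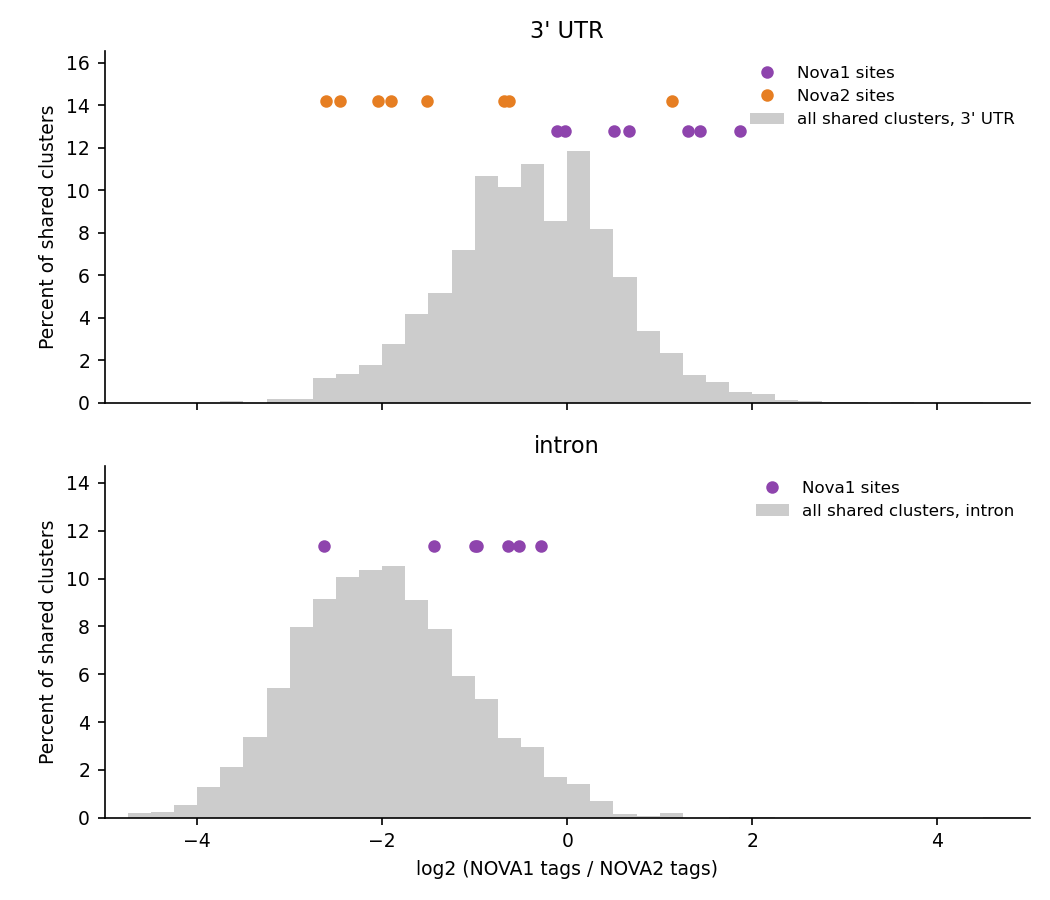
Log2 ratio of NOVA1 to NOVA2 tags in 3' UTRs (upper panel) and introns (lower panel). Grey bars give the percent of all one-to-one cluster pairs of that class per bin; points are the shared positions of Nova1 and Nova2, and their height has no meaning. Points of the Nova1 3' UTR lie from -0.11 to 1.87 and those of the Nova2 3' UTR from -2.60 to 1.14, with a single point above 0.

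Summed over each gene, NOVA1 contributed 43.8% (40.9 to 46.7) of the tags on Nova1 and 23.1% (20.7 to 25.6) of those on Nova2, against 18.9% of the tags of both whole lists. Between the genes, the log2 ratio of NOVA1 over NOVA2 tags differed by 1.37 (1.11 to 1.63), with the higher ratio on Nova1. In the 3' UTRs alone the difference was 2.49 (2.16 to 2.82). The sums there run over 1474 nt of NOVA1 and 943 nt of NOVA2 clusters in Nova1, and over 1838 and 1809 nt in Nova2. Any scaling of the lists cancels in these differences. Over the positions bound in both lists they were 1.50 and 2.44, and without the position of most tags in each gene 1.39 and 2.37. That position lay in intron 2 of Nova1 and in the 3' UTR of Nova2. The value of 2.37 thus left out a 3' UTR position of Nova2 only. The tag minimum does not cancel: without clusters under 20 tags the differences were 1.91 and 3.26, outside the intervals above but in the same direction.

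Against other genes, Nova1 stood on the NOVA1 side in its 3' UTR and Nova2 on the NOVA2 side. When tags were divided by the tag total of their list, the log2 ratio of NOVA1 to NOVA2 was 1.74 (1.57 to 1.91) on Nova1, at percentile 81.5 of 2799 genes with tags of both proteins, whose median was 0.34. On Nova2 it was 0.37 (0.17 to 0.57), at percentile 50.8. For the 3' UTR it was 2.78 (2.52 to 3.04) on Nova1, at percentile 88.5 of 1534 genes with a median of 1.59, and 0.29 (0.074 to 0.50) on Nova2, at percentile 10.8.
The sign on Nova2 depended on the scaling. With the unique tag totals of the study as the divisor the ratio was -0.39 over the gene and -0.46 over its 3' UTR, while Nova1 was above 0 in both. The percentiles do not depend on the divisor. The scaled ratio of 0.85 in the introns of Nova1 lay at percentile 93.2 of 1280 genes with a median of -0.99. Within Nova1, the log2 ratio was higher in the 3' UTR than in introns by 1.93 (1.57 to 2.28). Of 428 genes with tags of both proteins in both parts, 409 had the higher ratio in the 3' UTR, with a median difference of 2.61, so that Nova1 had the usual order.

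YCAY was denser in the clusters than in the unbound rest of the same part of the gene. In the 3' UTR of Nova1 there were 33.8 YCAY per 1000 positions in NOVA1 clusters and 39.0 in NOVA2 clusters, against 14.2 outside all clusters. In its introns both lists had 43.1, against 16.1. In the 3' UTR of Nova2 the values were 34.8 and 40.2, against 14.8. The folds ran from 2.36 to 2.75.
All 67 clusters contained at least 1 YCAY. The share over the whole lists was not computed, so that this count is not read as a trait of these genes. Single clusters ranged widely, from 8.26 per 1000 in a NOVA2 cluster of the Nova2 3' UTR with 45 tags to 93.0 in another with 37 tags. The NOVA2 cluster with 302 tags had 22.7 per 1000, below the pooled value of 40.2. Over all 3' UTR clusters of the lists the densities were 26.4 for NOVA1 and 28.8 for NOVA2, and over all intronic clusters 53.4 and 44.9. Against flanks 200 to 500 nt from the clusters, the folds in these 3' UTRs were 1.52 to 1.78. These flanks were not cleared of other clusters and held 21.6 to 23.0 YCAY per 1000 positions.

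**Figure D5:**
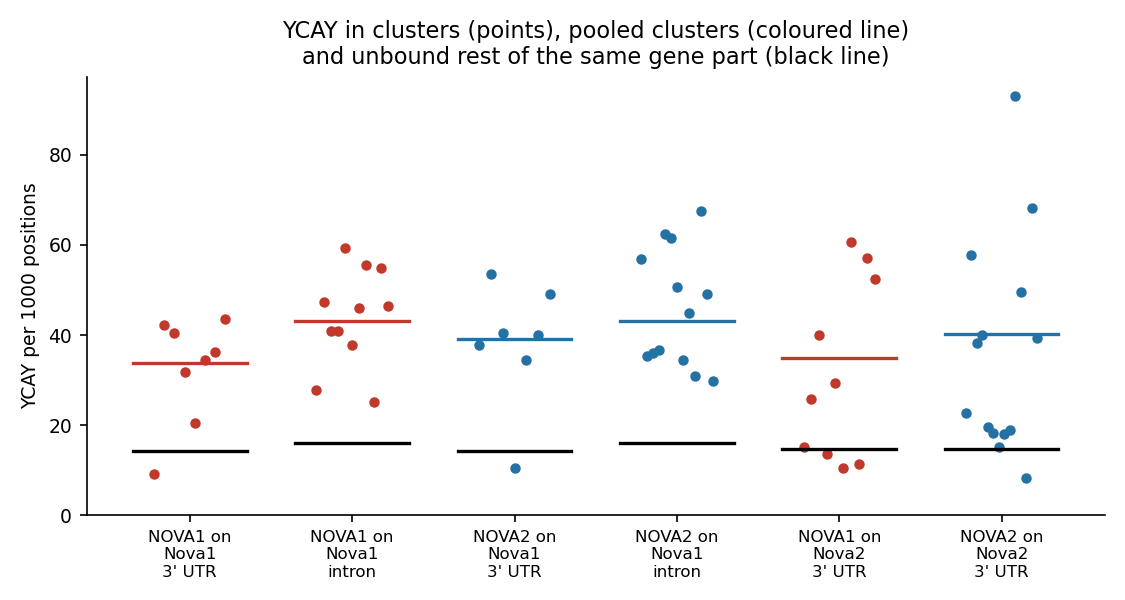
YCAY per 1000 positions in each cluster (points, spread sideways for legibility), in the pooled clusters of a group (coloured line) and in the unbound rest of the same part of the same gene (black line). The pooled lines lie between 33.8 and 43.1, and the black lines between 14.2 and 16.1; single clusters of the Nova2 3' UTR reach down to 8.26.

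Dense runs of YCAY, with at least 4 in 30 nt, were set against the length under clusters of either list. This was 27.2% of the 3' UTR of Nova1, 35.3% of that of Nova2 and 1.69% of the introns of Nova1. All 6 dense runs in the 3' UTRs (1 in Nova1 and 5 in Nova2) touched a cluster, as did 2 of 19 in the introns of Nova1 and 0 of 5 in those of Nova2. The only dense run in coding sequence, chr7:19543858-19543885 in Nova2, touched no cluster. With at least 3 YCAY in 30 nt, a cluster was touched by 14 of 20 runs (70.0%) in 3' UTRs and 13 of 135 (9.63%) in introns of both genes. One of the 2 bound intronic runs with at least 4 YCAY, chr12:47814448-47814476, lay directly downstream of exon 4.
The longest run, chr12:47808910-47809256 in intron 4 of Nova1, held 41 YCAY in 347 nt and had no cluster. It was 1 of 6 runs with 83 YCAY packed into 1014 nt, chr12:47808520-47809533, which together make up 6 of the 17 unbound runs in Nova1 introns. With this stretch, intron 4 had 23.6 YCAY per 1000 positions, and without it 16.8. No member cluster had a further copy in the genome or a match in the other Nova gene. The runs without a cluster were not searched for copies, and whether reads can be placed uniquely there was not tested.

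Genes of other RNA-binding proteins were often bound as well. The list comprised splicing regulators and KH-domain proteins known from neurons, of which 32 were found in the annotation. Of these, 18 (56.3%) had a NOVA1 cluster, against 13.0% of all protein-coding genes, and 27 (84.4%) had a NOVA2 cluster, against 23.1%. The listed genes with a NOVA1 cluster had a median of 77 NOVA1 tags, where all protein-coding genes with one had 32. For NOVA2 the medians were 219 and 57. The listed genes were not matched to other genes in length or in transcript level.
Celf2, which encodes a CUG-binding splicing regulator, led both lists with 1374 NOVA1 and 13273 NOVA2 tags. Rbfox1, whose protein binds GCAUG beside neuronal exons, followed with 1091 and 10351. The next were Ptbp2, the neuronal polypyrimidine tract-binding protein, with 270 NOVA1 tags, and Rbfox3, known as the neuronal marker NeuN, with 2261 NOVA2 tags.
By NOVA1 tags 2 listed genes stood above Nova1 and 3 above Nova2, while by NOVA2 tags 9 stood above Nova1 and 6 above Nova2. The scaled log2 ratio of NOVA1 to NOVA2 had a median of -0.62 over the 18 listed genes with both proteins. Over all genes the median was 0.34, and the ratio was 1.74 on Nova1 and 0.37 on Nova2. Of the 18 listed genes, 5 had a ratio above 0, and 2 with the unique tag totals of the study as divisor.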

How the data were processed

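The authors aligned HITS-CLIP reads of 3 NOVA1 and 3 NOVA2 libraries to mm9 with Novoalign (version not given in the sources used here), removed PCR duplicates and deposited, for each protein, clusters found in at least 2 libraries with at least 10 tags. The deposited value is a whole-number tag count per cluster, pooled over libraries and not scaled. The study calls the 10-tag limit a peak height. The lists do not say whether the value is that depth or all tags of a cluster, and sums of it may be sums of depths. Depth per library cannot be read from it.

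From these lists, clusters on the genes were taken as described and classed by the GENCODE vM1 feature over most of their length, with overlap of at least 1 nt in sense orientation. Tag sums carry exact Poisson intervals, shares Clopper-Pearson intervals, and differences of log2 ratios Woolf intervals, all at 95%. YCAY was counted on the transcript strand of NCBIM37. A further copy was a BLAST match of at least 90% identity over at least 50% of a cluster. Clusters described singly were the 5 with the most tags per gene and list, those in exons (up to 10 per gene by tags) and those within 500 nt of an exon. The genes, the lists and these rules were chosen with earlier results of these data known. The counting and overlap functions were tested on simulated data. Python 3.11.15, pandas 2.3.3, SciPy 1.17.1, pysam 0.24.0 and BLAST+ 2.17.0 were used. Qki was listed among the RNA-binding proteins and was not matched by symbol in the annotation, and Ptbp3 was found under its older symbol Rod1. RNA-seq of the study was not analysed here.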

Additional observations from a re-analysis of the deposited data

How the results depend on the processing

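Of 106 alternative values for 34 results, 76 stayed within the counting interval or the 1.5-fold limit of the value reported, 26 moved beyond it and 4 changed sign. Medians at shared positions were judged by the standard deviation of the pairs instead. Some of the 76 could not change, because no cluster lay on the opposite strand of either gene or past the end of Nova1. The count is thus no measure of robustness. The sign changes were all of the scaled ratio on Nova2, which was -0.39 (whole gene) and -0.46 (3' UTR) with the unique tag totals of the study as divisor, -1.19 for the 3' UTR with the 3' UTR tags of each list as divisor, and -0.25 when clusters under 20 tags were dropped from either list. It was 0.089 with the NOVA2 list at 25 or more tags. On Nova1 the ratio was 0.99 with the unique tag totals and for its 3' UTR 2.02 with these and 1.30 with the 3' UTR tags. At 20 or more tags, NOVA1 and NOVA2 had 8 and 10 clusters with 348 and 518 tags on Nova1, and 4 and 9 clusters with 142 and 795 tags on Nova2. There the overlap of NOVA2 clusters on Nova2 was 44.4%, and the log2 difference between the genes rose to 1.91 over all clusters and 3.26 over 3' UTRs. With the NOVA2 list at 25 or more tags, 63.2% of NOVA1 clusters on Nova1 overlapped a NOVA2 cluster, and 100% of the NOVA2 clusters left on Nova1 overlapped a NOVA1 cluster. Within the gene span alone Nova2 had 233 NOVA1 and 819 NOVA2 tags. Merging clusters within 50 nt left 10 NOVA2 clusters on Nova2. With flanks as background the YCAY folds were 1.56 (NOVA1) and 1.70 (NOVA2) in the Nova1 3' UTR, 1.82 (NOVA2) in its introns, and 1.52 (NOVA1) and 1.78 (NOVA2) in the Nova2 3' UTR. The flanks could include other clusters. The differences between the genes, the ratios at shared positions and in 3' UTRs, the dense YCAY runs and the count of listed genes above 0 were chosen, with their alternatives, after seeing the data. The causes of these changes were not tested, apart from the fewer clusters that a higher tag limit leaves. No paired analysis was possible because each list gives only sums over its libraries, and for the same reason no library could be left out. A fixed limit of 10 tags admits weaker positions in the more deeply sequenced protein.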

Other observations

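The genes most like Nova1 and Nova2 were sought among 2799 genes with clusters of both proteins, by the distance over 4 values, log2 of exonic and of intronic tags plus 1 in each list. Nearest to Nova1 (316 exonic and 189 intronic NOVA1 tags, 198 and 451 NOVA2 tags) were Odz1, which encodes a teneurin, at a distance of 1.36, Stox2 at 1.41 and Rev3l, which encodes the catalytic subunit of DNA polymerase zeta, at 1.44, where the median gene was at 11.6. Stox2 had 445 exonic and 127 intronic NOVA1 tags and 422 and 637 NOVA2 tags. Nearest to Nova2 (233 exonic NOVA1 and 819 exonic NOVA2 tags, none in introns) were Clcn4-2, which encodes a chloride transporter, at 0.41, Npy, the gene of neuropeptide Y, at 0.43 and Rab14, a small GTPase gene, at 0.47, where the median gene was at 9.89. Like Nova2, these 3 genes had no intronic tags in either list. The distance takes in intronic tags, so that this likeness follows from how the genes were picked. Npy had 233 NOVA1 and 1103 NOVA2 tags. The likeness is a description of tag counts, which share the transcript level of each gene.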
